A study of Manihot esculenta with 32 samples.

Results

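Lateral buds of cassava (Manihot esculenta) were compared with the shoot apical meristem (SAM), the growing tip of the shoot. The comparison used 6 of the 32 RNA-seq libraries of a cassava tissue atlas, the 3 titled Lateral Bud and the 3 titled SAM. All 6 came from plants of cultivar TME204 that were 3 months old, grown in a glasshouse, harvested at the same hour of the day, and all libraries of the atlas shared a sequencing lane. The other 26 libraries covered 9 further tissue/organ types: leaf, midvein, petiole, stem, storage root, fibrous root, the root apical meristem (RAM), organized embryogenic structures (OES) and friable embryogenic callus (FEC). Each SAM library was a pool of 6 dissected meristems, with RNA from the Arcturus PicoPure kit and a reduced amount of fragmentation enzyme and random primer, whereas bud RNA was isolated from bulk tissue with the Sigma Spectrum kit. Kit, fragmentation and pooling were the same within each tissue, so their share in any difference cannot be told apart from that of the tissue. Both tissues were cut out by hand, and a sample could hold neighbouring cells.

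The SAM keeps a small pool of stem cells at the shoot tip, from whose flanks leaves and stem are formed. In Arabidopsis the peptide CLAVATA3 is made by those stem cells and acts in a feedback loop with the homeobox factor WUSCHEL, while KNOX homeobox factors keep meristem cells undifferentiated and partner with BELL homeobox proteins. A lateral bud sits in a leaf axil and holds a meristem of its own, wrapped in young leaves, and it can remain dormant under the control of the shoot tip. In Arabidopsis buds, dormancy involves TCP factors such as BRANCHED1, the hormones strigolactone and abscisic acid, and a block of the cell cycle.

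Expression is given as FPKM, in which the fragments of a locus are scaled by its length and by the depth of the library, and a locus is a gene model merged over all libraries. The bud libraries held 11787238 to 13454816 fragments on loci with a gene name and the SAM libraries 5398488 to 7024089. A locus of median length at 1 FPKM thus rested on 21.6 to 24.5 fragments in a bud library and on 9.39 to 11.95 in a SAM library. The Jensen-Shannon (JS) distance between log-scaled profiles, a measure of dissimilarity between libraries, was 0.196 to 0.256 for the 9 pairs of a bud with a SAM library. It was 0.152 to 0.166 among SAM libraries and 0.136 to 0.185 among bud libraries. The pair of lateral bud 1 and lateral bud 2 had the largest distance within a tissue, and lateral bud 2 was also the bud library farthest from each SAM library.

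Lateral bud 2 stood apart from the other buds. Of 23427 tested loci, 922 (3.94%) were more than 4 times lower in lateral bud 2 than in both other buds, against 261 in lateral bud 1 and 73 in lateral bud 3. The loci with more than 4 times the FPKM of both other buds were 171 in lateral bud 2, 112 in lateral bud 1 and 137 in lateral bud 3. Genes of cell division were among the low ones, such as 8 of the 16 cyclin and cyclin-dependent kinase loci, and their values are given below. The other low loci were not described as a set. Results that rest on this library are therefore given with it and without it.

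Bud and SAM differed at many loci, and more loci were higher in the bud. Loci whose mean reached 1 FPKM in the bud or in the SAM were tested with the quasi-likelihood method of edgeR, with p-values adjusted by Benjamini-Hochberg. A call needed an adjusted p under 0.05 and mean FPKM values more than 4 times apart. Of the 23427 loci tested, 2350 were called (10%), 701 as higher in the SAM (2.99%) and 1649 as higher in the lateral bud (7.04%). The bud share of the calls was 70.2%, with a 95% exact Clopper-Pearson interval of 68.3 to 72.0% that covers the count of loci only. It takes the loci as independent, though all come from the same 6 libraries, and leaves out the spread between libraries. Without lateral bud 2 the share was 72.25%, outside the interval. The adjusted p alone was passed by 9796 loci, 4192 higher in the SAM (17.9%) and 5604 higher in the bud (23.9%), and the median log2 fold change over all tested loci was -0.04 (SAM minus lateral bud, as throughout). The 3 SAM libraries lay entirely above or below the 3 bud libraries at 661 of the loci called higher in the SAM and at 1597 of those called higher in the bud. The call rule itself favours loci without overlap, so these counts lend the calls no further support. Without lateral bud 2, 519 loci were called higher in the SAM (2.23% of 23231 tested) and 1351 higher in the bud (5.82%), of which 457 and 1289 were also called with it. In bulk tissue, fewer cells of a type and less RNA per cell cannot be told apart.

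**Figure D1:**
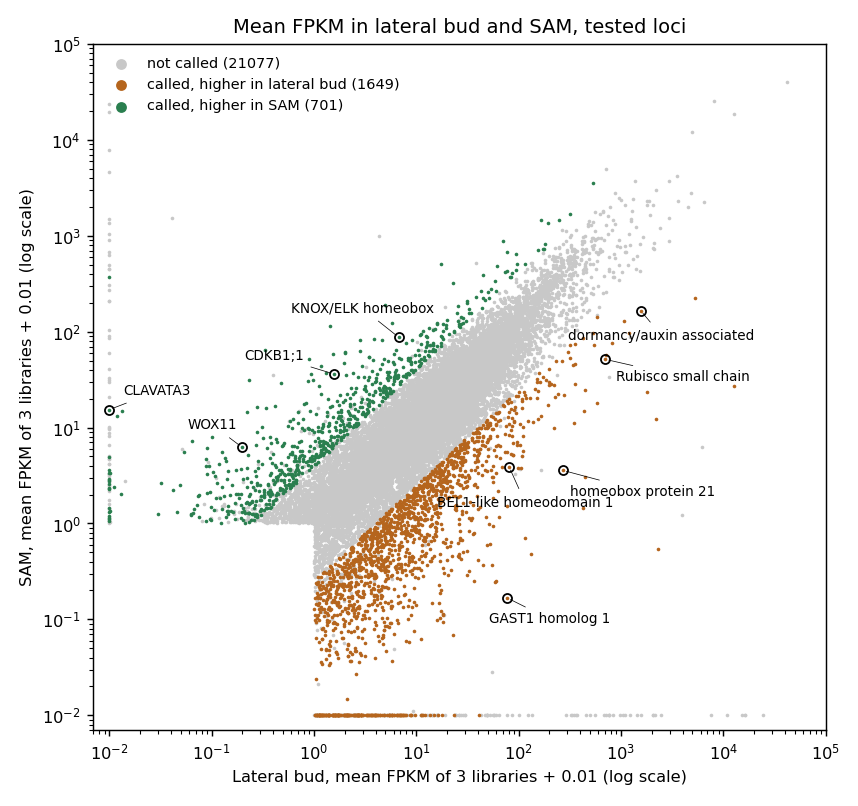
Mean FPKM of the 3 lateral bud libraries (x axis) against the mean of the 3 SAM libraries (y axis), both on log scales after adding 0.01, for the 23427 tested loci. Green points are the 701 loci called higher in the SAM and brown points the 1649 called higher in the lateral bud. CLAVATA3 lies at 0 in the bud, and homeobox protein 21 and GAST1 protein homolog 1 are among the labelled loci far on the bud side.

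Depth limited the low side of many calls. At 508 of the loci called higher in the bud, no SAM library held more than 3 fragments, and at 84 of the loci called higher in the SAM no bud library did. For such a locus the difference is given as a lower bound, the mean depth-scaled fragments of the higher tissue over those of 3 fragments in each library of the other, and intervals and bounds cover counting error only. The loci called higher in the SAM had a median of 9.30 FPKM there, and those called higher in the bud a median of 6.74 FPKM in the bud. At 4 called loci the fitted fold change had the opposite sign to the ratio of mean FPKM, and none of these is named.

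Gene functions were available for 3628 of the tested loci, from annotations attached to genes that differed in other comparisons of the atlas. Of these, 179 (4.93%) were called higher in the SAM and 560 (15.4%) higher in the bud, so counts of calls in the gene lists are to be read against those shares. The lists are not complete pathways, since genes outside the annotated set are missing from them. The median log2 fold change over the annotated loci was -0.31.

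The gene annotated as CLAVATA3 (Manes.11G165600), the stem cell peptide, was detected in the SAM and not in the bud. It had no fragment in any of the 3 bud libraries, whereas the SAM libraries gave 12.6, 23.5 and 10.1 FPKM from 24, 47 and 14 fragments. The SAM level was at least 18.3-fold higher, with an adjusted p of 3.2e-05. Outside the SAM its transcripts were found in the 3 OES libraries at 34.9 to 43.0 FPKM and in the 3 FEC libraries at 6.07 to 11.3 FPKM, and the libraries of the other 8 types, the RAM and the bud among them, were all at 0. A count of 0 in the bud libraries allows up to 3 fragments each, so low expression of the gene there was not detectable at this depth.

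Other genes of the WUSCHEL-related homeobox (WOX) and CLAVATA families differed in both directions. Of 14 tested loci, 4 were called higher in the SAM and 3 higher in the bud, with a median log2 fold change of 1.13, and without lateral bud 2 the counts were again 4 and 3, of 12. WUSCHEL-related homeobox 11 (Manes.08G151900), whose Arabidopsis namesake acts in root founder cells, was at 0.215, 0.122 and 0.224 FPKM in the buds and at 6.04, 4.68 and 8.07 FPKM in the SAM. The libraries did not overlap, and the log2 fold change was 5.20 ± 0.58 (SE), with an adjusted p of 5.1e-07. The CLE peptide gene annotated CLAVATA3/ESR-RELATED 26 (Manes.01G193600) was at 0.996, 1.42 and 1.18 FPKM in the buds and at 8.91, 10.01 and 7.99 FPKM in the SAM (log2 fold change 2.88 ± 0.63, adjusted p = 0.001). WUSCHEL-related homeobox 2 (Manes.04G033600), known from the Arabidopsis embryo, was low in both, at 0.173 to 0.450 FPKM in the buds and 1.37 to 1.97 FPKM in the SAM (2.50 ± 0.49, adjusted p = 0.00031).

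On the bud side stood both genes annotated as WUSCHEL-related homeobox 1, a factor of leaf blade growth in Arabidopsis. Manes.06G007300 was at 10.4, 7.41 and 7.64 FPKM in the buds and at 0.425, 0.494 and 0.538 FPKM in the SAM, a log2 fold change of -4.15 ± 0.41 (adjusted p = 5.7e-07). Manes.14G170900 was at 5.59, 3.18 and 2.49 FPKM against 1.16, 0.578 and 0.594 FPKM (-2.27 ± 0.53, adjusted p = 0.0022). Neither gene overlapped between the tissues. Among the other types, Manes.06G007300 had its highest mean in the leaf, at 6.00 FPKM. A locus annotated CLAVATA3/ESR-RELATED 45 (Manes.05G101400) was also called higher in the bud, but this gene name lies on 2 loci of which the other went the opposite way (adjusted p = 0.0027, log2 fold change 1.96), so it is uncertain.

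KNOX and BELL homeobox genes split between the tissues. On the SAM side the largest difference was that of the gene annotated KNOX/ELK homeobox transcription factor (Manes.17G027300), which the wording of the list left out and the rule for large ratios brought in. It was at 6.70, 3.46 and 10.1 FPKM in the buds and at 95.01, 77.9 and 87.95 FPKM in the SAM, a ratio of means of 12.9 and a log2 fold change of 3.61 ± 0.36 (adjusted p = 7.1e-08). As the rule for large ratios required, the libraries did not overlap. The SAM had the highest mean of all 11 types, followed by the FEC at 61.8 FPKM and the stem at 25.2 FPKM.

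Of the 8 tested loci in the KNOX and BELL list, 1 was called higher in the SAM and 3 higher in the bud, and 3 did not pass the adjusted p. KNOTTED1-like homeobox gene 6 (Manes.09G176900), a class of KNOX gene that in Arabidopsis acts in the meristem and its boundaries, was at 4.72, 5.71 and 7.78 FPKM in the buds and at 30.9, 31.8 and 37.7 FPKM in the SAM (2.46 ± 0.37, adjusted p = 2.1e-05). The gene annotated KNOTTED-like from Arabidopsis thaliana (Manes.05G184900) passed the adjusted p but not the fold limit, at 26.2, 52.8 and 46.9 FPKM against 106, 102 and 84.8 FPKM (1.09 ± 0.33, adjusted p = 0.01). A second KNOTTED1-like homeobox gene 6 (Manes.08G111000) was at 10.4 to 22.7 FPKM in the buds and 32.3 to 38.9 FPKM in the SAM, without overlap, and missed the threshold (adjusted p = 0.056).

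The KNOX and BELL genes called higher in the bud were of other types. BEL1-like homeodomain 1 (Manes.09G045600), a BELL partner protein, was at 58.1, 112 and 72.3 FPKM in the buds and at 3.75, 3.70 and 4.22 FPKM in the SAM, a log2 fold change of -4.42 ± 0.40 (adjusted p = 1.8e-08). Its bud level was of the order seen in leaf, stem and roots, where group means ranged from 56.4 to 173 FPKM with midvein and petiole included, while the SAM, RAM, OES and FEC means were all under 4 FPKM. KNOTTED1-like homeobox gene 3 (Manes.14G138700), in Arabidopsis a class of KNOX gene expressed in differentiating organs, was at 23.7, 37.5 and 28.7 FPKM against 6.08, 6.25 and 7.40 FPKM (-2.21 ± 0.24, adjusted p = 1.6e-07). A POX family (BELL type) gene, Manes.01G058700, was at 1.13, 3.69 and 1.60 FPKM in the buds, at least 16.0-fold higher than in the SAM (adjusted p = 3.2e-06). Without lateral bud 2 it was again past the threshold (adjusted p = 1.2e-05), whereas KNOTTED1-like homeobox gene 3 fell just under the fold limit (adjusted p = 1.1e-06).

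Among factors of organ boundaries and organ initiation, the calls on the SAM side fell in a family with the DUF640 domain. These proteins include the LIGHT-DEPENDENT SHORT HYPOCOTYLS group of Arabidopsis, of which some are expressed at the boundary between meristem and organs. Of 24 tested loci in the list, 4 were called higher in the SAM and 2 higher in the bud, and all 4 of the former were DUF640 genes. Manes.03G163600 was at 2.90, 9.72 and 6.17 FPKM in the buds and at 71.8, 53.1 and 67.3 FPKM in the SAM (3.34 ± 0.37, adjusted p = 2.7e-07). Manes.06G054300 was at 2.87, 4.33 and 6.71 FPKM against 33.3, 49.5 and 54.1 FPKM (3.28 ± 0.40, adjusted p = 9.4e-07). Manes.08G139300 was at 10.2, 15.6 and 22.5 FPKM against 116, 131 and 120 FPKM (2.91 ± 0.54, adjusted p = 0.00014), the highest SAM level of the family.

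Manes.09G148200, the remaining one, was at 5.70, 15.2 and 10.4 FPKM in the buds and at 61.1, 62.6 and 69.5 FPKM in the SAM (2.65 ± 0.51, adjusted p = 0.00052). None of the 4 overlapped between the tissues. The family was not uniform, since Manes.14G126500 was at 132, 255 and 117 FPKM in the buds and at 62.9, 83.2 and 94.8 FPKM in the SAM, with an adjusted p of 0.0043 (0.075 without lateral bud 2) and a log2 fold change of -1.07 under the fold limit. Manes.12G033200 was at 16.9, 66.0 and 29.1 FPKM against 91.5, 124 and 74.9 FPKM, and was called only without lateral bud 2, where its log2 fold change was 2.23 (1.67 with it). The 2 loci called higher in the bud were LOB domain-containing proteins 15 and 39 (Manes.07G138500 and Manes.07G058400), at means of 1.37 and 2.05 FPKM in the bud, and neither was called without lateral bud 2.

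**Figure D2:**
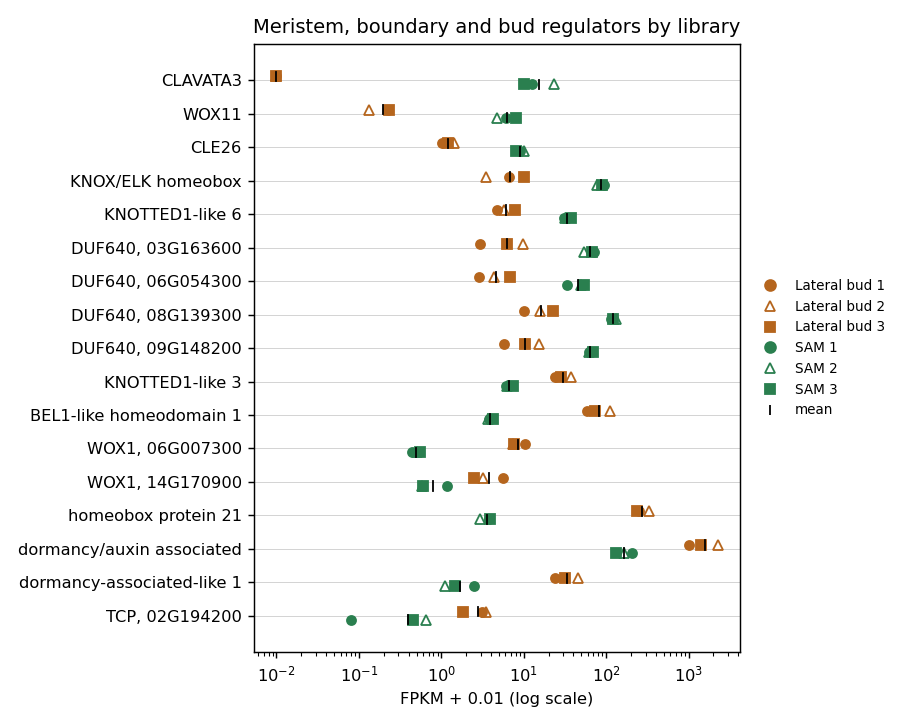
FPKM + 0.01 on a log scale (x axis) of 17 regulators in each lateral bud library (brown) and each SAM library (green), with circles, open triangles and squares for libraries 1, 2 and 3 and a bar at the mean of the 3. CLAVATA3, WOX11, CLE26, the KNOX/ELK gene, KNOTTED1-like 6 and the 4 DUF640 genes lie to the right in the SAM. The genes from KNOTTED1-like 3 downwards lie to the right in the bud.

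Several genes tied to bud dormancy were higher in the lateral bud. A large difference was that of homeobox protein 21 (Manes.13G136800), which in Arabidopsis acts downstream of BRANCHED1 in axillary buds. It was at 248, 326 and 237 FPKM in the buds and at 3.82, 2.97 and 3.91 FPKM in the SAM, a ratio of means of 75.9 and a log2 fold change of -6.25 ± 0.53 (adjusted p = 8.3e-09). The bud had the highest level of the 11 types, followed by OES at 56.5 to 66.5 FPKM and RAM at 13.03 to 48.5 FPKM, while every leaf, midvein, petiole, stem and storage root library was below 2 FPKM. Homeobox 7 (Manes.01G242300), like homeobox protein 21 outside the dormancy list, and whose Arabidopsis namesake is induced by drought and abscisic acid, was at 28.9, 15.7 and 7.77 FPKM in the buds and at 0.583, 0 and 0 FPKM in the SAM (-6.36 ± 0.98, adjusted p = 1.8e-05). It was not confined to the bud, with means of 104 FPKM in the storage root and 16.8 FPKM in the fibrous root.

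In the list worded for strigolactone and bud dormancy, the tested loci were TCP factors and dormancy-associated genes, with no strigolactone gene by annotation. Of its 11 tested loci, 3 were called higher in the bud and 0 higher in the SAM. The adjusted p alone was passed by 6 and 1, and 4 did not pass it. The median log2 fold change was -1.40. Without lateral bud 2 the calls were again 3 and 0. The gene annotated Dormancy/auxin associated family protein (Manes.09G171400), of a family used as a marker of dormant buds, was at 1017, 2248 and 1411 FPKM in the buds and at 204, 162 and 131 FPKM in the SAM (-3.21 ± 0.50, adjusted p = 2.4e-05). It was not confined to the bud, since the storage root mean was 9570 FPKM and the fibrous root mean 1631 FPKM. Dormancy-associated protein-like 1 (Manes.17G047900) was at 23.7, 45.2 and 31.6 FPKM against 2.48, 1.09 and 1.46 FPKM (-4.32 ± 0.59, adjusted p = 4.4e-06). The more abundant locus of the same annotation, Manes.16G030000, was at 4902, 8617 and 6114 FPKM against 2615, 2240 and 1914 FPKM and stayed under the fold limit (-1.54 ± 0.39, adjusted p = 0.003). In all 3 genes the SAM libraries lay below every bud library and lateral bud 2 was the highest. The summed FPKM of the list was 6012 to 10977 in the buds and 2091 to 2864 in the SAM. It was 33494 to 55212 in the storage root, 4209 to 6842 in the stem and 4690 to 6287 in the fibrous root, so a high level was not particular to the bud.

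TCP factors, the family of BRANCHED1, were mostly low. The TCP family gene Manes.02G194200 was at 3.12, 3.43 and 1.82 FPKM in the buds and at 0.0707, 0.635 and 0.448 FPKM in the SAM (-2.87 ± 0.70, adjusted p = 0.0024). The files do not say which TCP gene this is. Another, Manes.10G120400, went the other way, at 6.92, 13.8 and 9.40 FPKM against 16.2, 23.5 and 15.4 FPKM (0.86 ± 0.32, adjusted p = 0.03, under the fold limit). Of the 8 TCP loci in the list, 4 did not pass the adjusted p.

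Most tested genes of the abscisic acid response were higher in the bud. Of 12 tested loci, 5 were called higher in the bud and 0 higher in the SAM, 9 and 0 passed the adjusted p alone, and the median log2 fold change was -1.91, beside -0.31 over all annotated loci. Late Embryogenesis Abundant 4-5 (Manes.08G044900), a protective protein of drying cells, was at 35.6, 97.3 and 43.2 FPKM in the buds and at 0.708, 0 and 0 FPKM in the SAM, at least 50.7-fold higher in the bud (adjusted p = 5.8e-05). The transcription factor annotated abscisic acid responsive elements-binding factor 3 (Manes.10G080700) was at 22.9, 60.3 and 32.5 FPKM against 10.3, 7.46 and 8.73 FPKM (-2.13 ± 0.32, adjusted p = 1.1e-05). Factor 2 of the same family (Manes.05G174500) was at 92.2, 91.9 and 74.9 FPKM against 9.93, 9.62 and 11.8 FPKM at the more abundant of its 2 loci (-3.16 ± 0.34, adjusted p = 1.6e-07). Drought-induced 21 (Manes.03G197100), outside the list, was at 75.2, 743 and 230 FPKM against 7.21, 6.67 and 19.2 FPKM (-5.15 ± 1.03, adjusted p = 0.00033). Its means in the storage root and OES were 3474 and 383 FPKM, beside 350 FPKM in the bud. Lateral bud 2 was the highest bud for 3 of these 4 genes, and without it 4 loci of the list were called, with a median of -1.84. Manes.10G080700 then fell under the fold limit.

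Some genes of cell division were higher in the SAM, and their number depended on lateral bud 2. Of 16 tested cyclin and cyclin-dependent kinase loci, 5 were called higher in the SAM and 0 higher in the bud, 9 did not pass the adjusted p, and the median log2 fold change was 1.10. Without lateral bud 2 the calls were 3 and 0 and the median was 0.53. Of the same loci, lateral bud 2 had the lowest FPKM of the buds at 16 of 16, beside 39.97% of all tested loci, and was more than 4 times lower than both other buds at 8.

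The gene with the largest difference was cyclin-dependent kinase B1;1 (Manes.17G000200), a plant kinase of the entry into mitosis. It was at 2.48, 0.374 and 1.85 FPKM in the buds and at 30.2, 33.2 and 44.8 FPKM in the SAM, a ratio of 23.0 and a log2 fold change of 4.22 ± 0.67 (adjusted p = 2.7e-05). Without lateral bud 2 the log2 fold change was 3.77 (adjusted p = 0.00027), and the next highest of the 11 types was FEC, at 7.03 FPKM. D-type cyclins, which start the cell cycle, gave further calls. CYCLIN D3;1 (Manes.S050700) was at 70.4, 23.4 and 66.7 FPKM in the buds and at 276, 298 and 272 FPKM in the SAM (2.37 ± 0.29, adjusted p = 1.1e-06), and a second gene of that annotation (Manes.07G076800) was at 38.7, 7.09 and 30.7 FPKM against 131, 139 and 116 FPKM (2.31 ± 0.42, adjusted p = 0.00014). Without lateral bud 2, Manes.07G076800 fell under the fold limit. The third locus named by the rule, Cyclin B1;4 (Manes.02G135600), shares its gene name with another locus and is uncertain. It was not called without lateral bud 2 either (adjusted p = 0.085).

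Some other genes of mitosis were low in lateral bud 2 alone. The following genes, apart from the kinesin, were picked after their values had been seen. The kinesin motor gene Manes.03G133900, whose protein moves along microtubules, was at 31.2, 0.325 and 19.7 FPKM in lateral buds 1, 2 and 3 and at 21.9, 27.4 and 26.1 FPKM in the SAM (adjusted p = 0.55). CYCLIN B2;4 (Manes.05G133500), of the cyclins that drive mitosis, was at 28.0, 0.362 and 15.1 FPKM against 16.6, 15.4 and 21.9 FPKM (adjusted p = 0.86). Cyclin A1;1 (Manes.02G166800) was at 28.1, 0.342 and 20.6 FPKM against 31.4, 37.7 and 46.6 FPKM (adjusted p = 0.15). In each of these genes lateral buds 1 and 3 were at levels of the order of the SAM, and lateral bud 2 was below 1 FPKM. The gene of a spindle protein, TPX2 (Manes.15G155600), had no fragment in lateral bud 2 and was at 18.6 and 12.2 FPKM in the others and 16.5 to 25.4 FPKM in the SAM.

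Genes of the replication machinery passed the adjusted p more often than the fold limit, with or without lateral bud 2. The wording of the core histone list also takes in histone H1. Of the 10 loci in the list, 6 passed the adjusted p as higher in the SAM and 0 as higher in the bud, and 1 was called. It was a histone superfamily gene (Manes.06G168000) at 113, 23.7 and 123 FPKM in the buds and 284, 493 and 465 FPKM in the SAM (2.24 ± 0.48, adjusted p = 0.00067). Without lateral bud 2 its log2 fold change was 1.79, under the fold limit, and 7 histone loci passed the adjusted p. Of 10 DNA replication loci, 7 passed the adjusted p as higher in the SAM and 1 as higher in the bud, none was called in either direction at a ratio above 4, and without lateral bud 2 the counts at the adjusted p were 4 and 1. Proliferating cell nuclear antigen 2 (Manes.02G123000), the clamp of DNA polymerase, was at 76.0, 17.8 and 66.2 FPKM against 121, 149 and 141 FPKM (1.34 ± 0.35, adjusted p = 0.0037). Of 7 kinesin and cytokinesis loci none was called and 1 passed the adjusted p, as higher in the bud.

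Set beside the other types, the median FPKM of the cyclin list was 24.96 in lateral bud 1, 0.999 in lateral bud 2 and 14.02 in lateral bud 3. It was 23.6 to 29.3 in the SAM, 10.2 to 22.1 in the RAM, 0.586 to 1.08 in the leaf and 0.415 to 0.772 in the storage root. Lateral bud 2 thus lay within the range of the leaf for this list, and lateral bud 1 within that of the SAM. For the kinesin list the median was 12.1, 0.757 and 10.5 FPKM in the 3 buds and 10.1 to 13.9 FPKM in the SAM. For core histones it was 146, 13.8 and 121 FPKM in the buds and 252 to 428 FPKM in the SAM, so that all buds were lower.

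**Figure D3:**
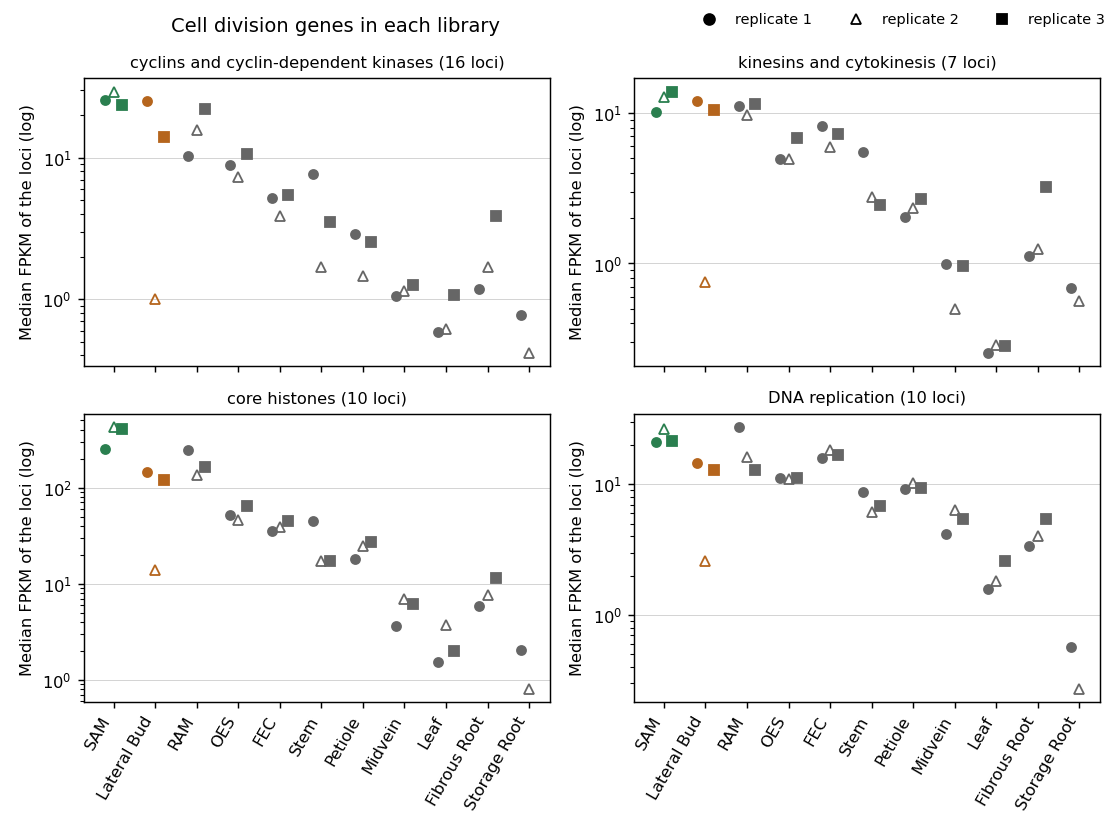
Median FPKM (log scale) over the loci of 4 cell division lists in each of the 32 libraries, by tissue/organ type, with circles, open triangles and squares for replicates 1, 2 and 3. SAM libraries are green and lateral bud libraries brown. In all 4 panels lateral bud 2 lies far below lateral buds 1 and 3. Both of the latter sit beside the SAM for kinesins and below it for histones and DNA replication. For cyclins lateral bud 1 sits beside the SAM and lateral bud 3 below it.

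Growth-regulating factors, which promote cell proliferation in young leaves, differed little in number of calls. Of 9 tested loci 4 passed the adjusted p as higher in the SAM with none past the fold limit, and 1 was called higher in the bud. That gene, growth-regulating factor 9 (Manes.05G043700), was at 21.6, 60.1 and 27.8 FPKM against 8.96, 5.83 and 6.36 FPKM (-2.36 ± 0.52, adjusted p = 0.0009), and was not called without lateral bud 2.

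Photosynthesis genes were higher in the bud, and the difference did not rest on lateral bud 2, which had the lowest level of the buds. Of 10 Calvin cycle and photorespiration loci, 6 were called higher in the bud and 0 higher in the SAM, with a median log2 fold change of -2.14 (-2.29 without lateral bud 2). A small chain of Rubisco, the enzyme that fixes CO2 (Manes.05G137400), was at 1158, 318 and 636 FPKM in the buds and at 53.4, 50.6 and 50.3 FPKM in the SAM (-3.80 ± 0.40, adjusted p = 1.3e-07). Rubisco activase (Manes.09G095000) was at 49.9, 26.7 and 31.2 FPKM against 10.2, 7.33 and 8.63 FPKM (-2.07 ± 0.44, adjusted p = 0.00059). Of 25 photosystem and antenna loci, 20 passed the adjusted p as higher in the bud and 0 as higher in the SAM, but 2 were called, with a median log2 fold change of -1.12, and without lateral bud 2 the calls were 5 and the median -1.36. Photosystem I P subunit (Manes.05G015700) had the largest difference of the list, at 115, 77.4 and 73.6 FPKM against 6.65, 6.51 and 7.61 FPKM (-3.70 ± 0.26, adjusted p = 3.8e-10).

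These lists also mark green leaf cells. Their summed FPKM was 3256 to 5547 in the buds and 1680 to 1976 in the SAM for the photosystem list, and 845 to 2059 against 268 to 319 for the Calvin cycle list, without overlap. No member of the photosystem list was at 0 in a SAM library. The part of young leaf tissue in the other differences was not tested.

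Of 12 epidermis and cuticle loci, 3 were called higher in the bud and 0 higher in the SAM, with a median log2 fold change of -1.60, and without lateral bud 2 the calls were 2 of 10, with a median of -1.14. All 3 were 3-ketoacyl-CoA synthases, enzymes of wax chain elongation, of which Manes.05G017600 had the largest difference, at 6.77, 16.4 and 8.62 FPKM against 0.372, 0.446 and 0.189 FPKM (-4.93 ± 0.50, adjusted p = 9.8e-08). Protodermal factor 1 (Manes.01G128300), a marker of the outermost cell layer chosen for mention after its values had been seen, was at 504 to 815 FPKM in the buds and at 616 to 759 FPKM in the SAM (adjusted p = 0.9). The summed FPKM of the epidermis list was 2800 to 3974 in the buds and 2080 to 2488 in the SAM. Of 6 phloem protein loci 2 were called higher in the bud, both at means under 5 FPKM (1 of 5 without lateral bud 2), and the summed level of 34.3 to 85.7 FPKM in the buds spanned that of 44.4 to 62.8 FPKM in the SAM. Of 12 secondary wall and xylem loci 2 were called higher in the SAM, both at loci that carry the name of FASCICLIN-like arabinogalactan-protein 11 (Manes.04G022900), and 1 higher in the bud, laccase 5 (Manes.07G135400). The summed level of that list was 67.9 to 191 FPKM in the buds and 240 to 293 FPKM in the SAM.

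Auxin genes were called in both directions. Of 48 tested loci, 7 were called higher in the SAM and 6 higher in the bud, with a median log2 fold change of 0.06. Within them stood the SAUR family of small auxin-induced proteins, which promote cell expansion. Of 18 tested loci annotated as SAUR-like, a family singled out after the values had been seen, 5 were called higher in the SAM and 0 higher in the bud. Manes.04G082100 was at 1.38, 2.06 and 2.58 FPKM in the buds and at 79.9, 39.1 and 63.6 FPKM in the SAM (4.94 ± 0.81, adjusted p = 5.6e-05). Manes.04G082200, the neighbouring ID, was at 4.33, 1.39 and 4.51 FPKM against 56.0, 57.4 and 48.2 FPKM (3.95 ± 0.50, adjusted p = 1.6e-06). SAUR genes can be near-identical copies, and reads of neighbours may be divided between them. Manes.S045900 was the most abundant of the 3, at 28.8, 23.9 and 26.1 FPKM against 94.9, 139 and 127 FPKM (2.18 ± 0.25, adjusted p = 4.8e-07).

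Gibberellin genes were also divided. Of 9 tested loci 3 were called in each direction. The bud side held GAST1 protein homolog 1 (Manes.05G147700), of a family of small proteins induced by gibberellin, at 121, 63.2 and 47.6 FPKM in the buds and 0, 0.472 and 0 FPKM in the SAM, at least 101-fold higher in the bud (adjusted p = 9.1e-05). It was higher still in the storage root, with a mean of 515 FPKM, and in the RAM at 168 FPKM. The SAM side held GAST1 protein homolog 4 (Manes.01G091100), at 59.5, 11.5 and 59.8 FPKM against 169, 167 and 197 FPKM (log2 fold change 1.998 ± 0.478, adjusted p = 0.0017), which fell under the fold limit without lateral bud 2. A gibberellin 2-oxidase, an enzyme that inactivates gibberellin (Manes.03G091000), was at 6.99, 15.8 and 12.1 FPKM against 1.55, 2.01 and 2.74 FPKM (-2.49 ± 0.85, adjusted p = 0.021), and lost the threshold without lateral bud 2 (adjusted p = 0.064).

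Cytokinin genes were few. Of 6 tested loci, response regulator 9 (Manes.02G164700), in Arabidopsis a member of the regulators that cytokinin induces, was called higher in the SAM, at 3.52, 4.30 and 7.20 FPKM against 20.1, 25.6 and 22.5 FPKM (2.17 ± 0.50, adjusted p = 0.0013). The 3 called higher in the bud were all annotated cytokinin response factor 4, of which Manes.14G019000 was at 3.88, 14.2 and 4.75 FPKM against 1.02, 2.16 and 0.559 FPKM and Manes.01G012200 at 1.32, 6.99 and 2.79 FPKM against 1.16, 0.504 and 0.492 FPKM. Lateral bud 2 was the highest library for both, and none of the 3 was called without it.

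Ethylene response factors and the wounding and jasmonate list were called higher in the bud at 42.9% and 33.3% of their loci, beside 15.4% of the annotated loci. Of 7 ethylene response loci, 3 were called higher in the bud and 0 higher in the SAM, with or without lateral bud 2. With all libraries, 4 did not pass the adjusted p. The median log2 fold change was -1.41, and -0.75 without lateral bud 2, which was the highest bud at all 7 loci. An ethylene-responsive element binding protein gene (Manes.15G009900) was the most abundant, at 208, 225 and 160 FPKM against 31.7, 28.7 and 23.8 FPKM (-2.83 ± 0.29, adjusted p = 9.2e-08). Of 45 wounding and jasmonate loci, which include the WRKY transcription factors of plant defence, 15 were called higher in the bud and 2 higher in the SAM, with a median log2 fold change of -1.59, and 14 and 2 without lateral bud 2. The WRKY gene Manes.05G030900 was at 7.98, 16.3 and 17.3 FPKM against 1.69, 1.96 and 1.20 FPKM (-3.09 ± 0.41, adjusted p = 2.7e-06). Another WRKY gene, Manes.05G056100, went the other way, at 2.88, 3.24 and 3.94 FPKM against 39.3, 24.6 and 29.3 FPKM (3.19 ± 0.73, adjusted p = 0.0013).

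Heat shock genes leaned to the bud, in part through lateral bud 2. Of 38 tested loci, 12 were called higher in the bud and 3 higher in the SAM, with a median log2 fold change of -1.43, and without lateral bud 2 the counts were 7 and 2 of 37, with a median of -0.93. Lateral bud 2 was the highest of the buds at 25 of the 38 loci (65.8%, beside 44.5% of all tested loci). The small heat shock protein gene Manes.15G189500 was at 8.77, 103 and 34.9 FPKM in the buds and at 1.76, 0 and 0 FPKM in the SAM (-6.18 ± 1.94, adjusted p = 0.013), and its adjusted p was 0.06 without lateral bud 2. Manes.10G020100, of the same family, was called with or without it, at 36.7, 67.0 and 38.1 FPKM against 3.99, 3.63 and 3.14 FPKM (-3.71 ± 0.59, adjusted p = 2.6e-05). Heat shock transcription factor B4 (Manes.18G038600) was higher in the SAM, at 17.1, 18.3 and 22.7 FPKM against 101, 120 and 105 FPKM (2.47 ± 0.33, adjusted p = 2.7e-06).

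Of 42 defence protein loci 8 were called higher in the bud (19.0%, beside 15.4% of the annotated loci) and 1 higher in the SAM, with a median log2 fold change of -0.42, and without lateral bud 2 the counts were 7 and 2 of 41. Their summed level was higher in the SAM, at 4282 to 5737 FPKM, than in the buds, at 1211 to 2832 FPKM. The SAM gene was the abundant thaumatin-like Manes.14G170800, at 114, 60.4 and 113 FPKM against 537, 534 and 463 FPKM (2.40 ± 0.35, adjusted p = 9.8e-06), and on the bud side pathogenesis-related 4 (Manes.08G135100) was at 17.6, 36.0 and 25.1 FPKM against 1.16, 1.14 and 1.002 FPKM (-4.54 ± 0.50, adjusted p = 2.4e-07). Of 8 flavonoid loci 2 were called higher in the bud, among them flavanone 3-hydroxylase (Manes.02G104700), an enzyme of flavonoid synthesis, at 361, 190 and 353 FPKM against 65.4, 57.8 and 59.98 FPKM (-2.33 ± 0.62, adjusted p = 0.0039). Of 27 cell wall loosening loci 6 were called higher in the bud and 1 higher in the SAM. The SAM gene was expansin A1 (Manes.01G034500), a protein that loosens cell walls, at 17.5, 19.2 and 56.8 FPKM against 117, 289 and 217 FPKM (2.73 ± 0.63, adjusted p = 0.0012).

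Several lists gave few calls or none. No ribosomal protein locus of 26 was called, 3 and 4 passed the adjusted p as higher in the SAM and in the bud, and their median log2 fold change was -0.11. The most abundant, a ribosomal protein L19e gene (Manes.05G000100), was at 756, 1139 and 845 FPKM against 699, 921 and 717 FPKM (adjusted p = 0.46), and the tissues overlapped. No MADS-box or flowering time locus of 16 was called, with 4 and 2 past the adjusted p. The most abundant MADS-box gene, Manes.18G059200, was at 152, 138 and 142 FPKM against 226, 232 and 240 FPKM (0.67 ± 0.16, adjusted p = 0.0018). Of 3 clock loci none was called and 2 passed the adjusted p as higher in the bud, such as pseudo-response regulator 9 (Manes.01G239500), at 89.7, 170 and 120 FPKM against 83.1, 69.7 and 56.8 FPKM (adjusted p = 0.0031). Of 20 starch and sucrose loci 1 was called, a neutral invertase (Manes.05G147500) at 0.149 to 0.323 FPKM in the buds and 1.32 to 2.29 FPKM in the SAM (adjusted p = 9.3e-06).

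**Figure D4:**
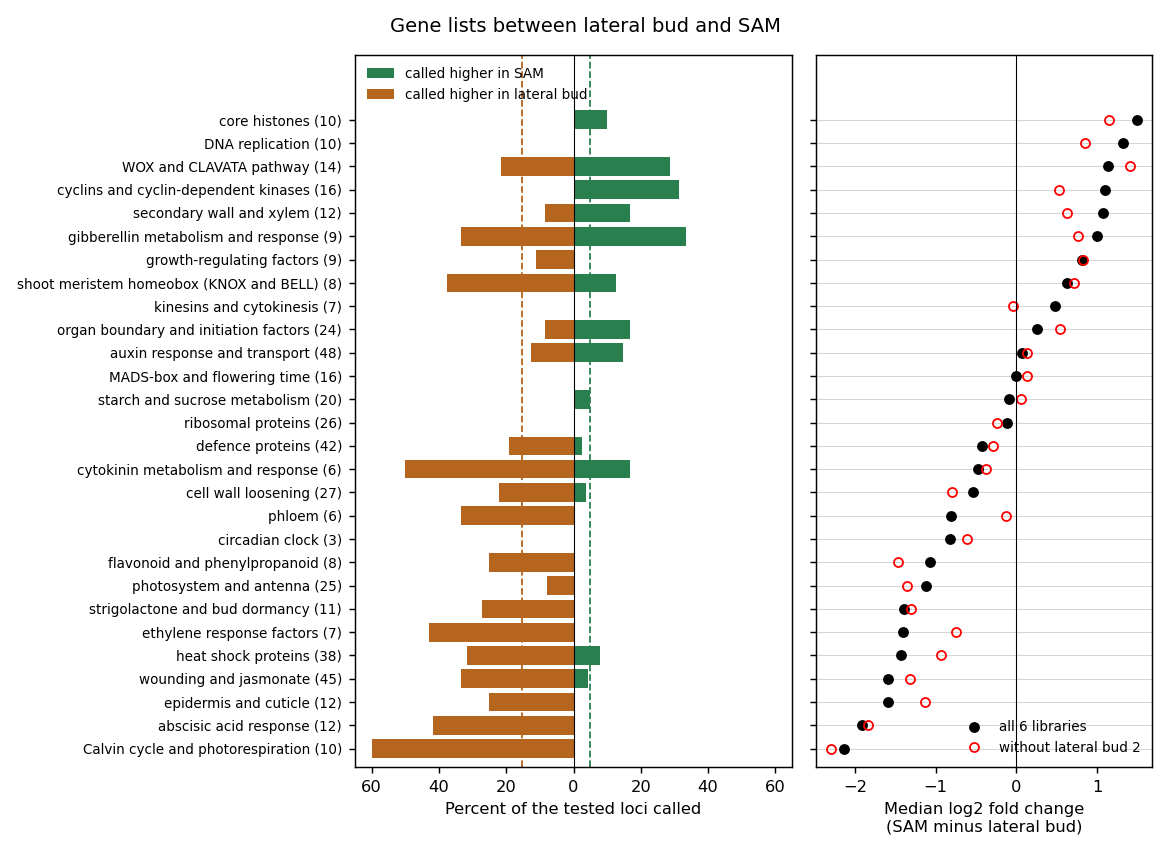
Left, percent of the tested loci of each gene list (number in parentheses) called higher in the SAM (green, to the right) or in the lateral bud (brown, to the left), with dashed lines at the shares among all annotated loci, 4.93% and 15.4%. Right, median log2 fold change (SAM minus lateral bud) of each list with all 6 libraries (black) and without lateral bud 2 (red), which runs from -2.14 for the Calvin cycle to 1.495 for core histones.

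Some of the largest differences lay outside the lists. Among annotated single-gene calls with at least 10 FPKM in the SAM and above 3 fragments in a bud library, the largest ratio was that of a plant invertase/pectin methylesterase inhibitor gene (Manes.06G136000), of a family that restrains cell wall and sugar enzymes, at 0.877, 0.171 and 1.60 FPKM in the buds and 51.9, 50.4 and 54.5 FPKM in the SAM (5.82 ± 0.55, adjusted p = 1.3e-07). It was at 7.66 FPKM or less in the means of the other 9 types. A gene with the DUF3049 domain (Manes.05G076000) was at 1.75, 0.655 and 2.12 FPKM against 51.5, 71.8 and 54.0 FPKM (5.26 ± 0.59, adjusted p = 5.5e-07), and was likewise at 8.23 FPKM or less elsewhere. A bHLH transcription factor gene (Manes.02G148500) was at 0.783, 1.16 and 1.95 FPKM against 35.0, 38.6 and 38.2 FPKM (4.82 ± 0.64, adjusted p = 2.6e-06), with 22.7 FPKM in the storage root.

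Further genes named by the rule for large ratios in the SAM were receptor like protein 29 (Manes.02G086800, ratio 22.4), sulphotransferase 12 (Manes.05G113100, ratio 14.8) and a DUF1677 gene (Manes.03G059500, ratio 16.2). The rule takes only genes whose 3 SAM libraries lay above the 3 buds. Among abundant genes, a lipid-transfer protein gene (Manes.01G078300) was at 957, 916 and 789 FPKM in the SAM and at 107, 1.40 and 101 FPKM in lateral buds 1, 2 and 3 (3.64 ± 0.64, adjusted p = 8.8e-05). Lateral bud 2 was again the one near 0, and without it the log2 fold change was 3.07 (adjusted p = 4.6e-08). A heavy metal transport/detoxification gene (Manes.05G064600) and an aspartyl protease gene (Manes.02G145900) had means of 424 and 417 FPKM in the SAM against 77.8 and 73.7 FPKM in the bud.

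On the bud side the same rule, which leaves out genes at no more than 3 fragments in every SAM library such as GAST1 protein homolog 1, named homeobox 7, homeobox protein 21, the small heat shock gene and the following. A pair of peroxidase genes, whose enzymes act on cell wall phenolics and peroxide, were at 20.1, 24.6 and 20.6 FPKM (Manes.03G084300) and at 17.1, 48.3 and 13.1 FPKM (Manes.07G138600) in the buds and at 1.20 FPKM or less in every SAM library (adjusted p = 0.00029 and 8.8e-05). UDP-glucosyl transferase 71B1 (Manes.04G072200) was at 17.8, 38.3 and 25.6 FPKM against 0.298, 0.686 and 0.253 FPKM (-6.00 ± 0.39, adjusted p = 1.1e-10). Beta glucosidase 11 (Manes.01G218200), which splits sugars from glycosides, was at 46.2, 70.8 and 35.9 FPKM against 1.08, 0.794 and 1.06 FPKM (-6.18 ± 0.42, adjusted p = 2.3e-10). The remaining 3 were an adenine nucleotide alpha hydrolase-like gene (Manes.05G002800, ratio 46.7), a phosphorylase family gene (Manes.09G126000, ratio 48.7) and an integrase-type DNA-binding gene (Manes.02G010700, ratio 42.4). Nodulin-related protein 1 (Manes.01G030100), at 677, 1728 and 790 FPKM against 117, 130 and 145 FPKM, and a CHY-type zinc finger gene (Manes.03G064600), at 178, 570 and 324 FPKM against 90.6, 62.1 and 71.2 FPKM, were among the most abundant. The CHY-type gene fell under the fold limit without lateral bud 2, at a bud mean of 251 FPKM against 74.6 FPKM in the SAM.

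The called loci were next placed among the other 9 types by mean FPKM, as a description. Of the loci called higher in the SAM, the RAM had the highest of the other means at 25.1%, beside 17.1% of all tested loci, and OES and FEC at 14.98% each, beside 8.93% and 12.6%. Leaf was the highest at 6.28%, beside 18.0%. Of the loci called higher in the bud, leaf was the highest of the other types at 27.3% and fibrous root at 18.9%, beside 18.0% and 7.90% of all tested loci, and the RAM at 4.73%. Loci below 1 FPKM in all 9 other types made up 7.56% of the SAM calls (53 loci), 2.001% of the bud calls (33 loci) and 1.10% of all tested loci. Over all 11 types, the SAM held the highest mean at 48.2% of its calls, beside 10.4% of all tested loci, and the bud at 13.5% of its calls, beside 3.64%. The calls were selected for a mean more than 4 times that of the other tissue. An excess in this last share, and in that of loci below 1 FPKM elsewhere, follows in part from that selection.

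**Figure D5:**
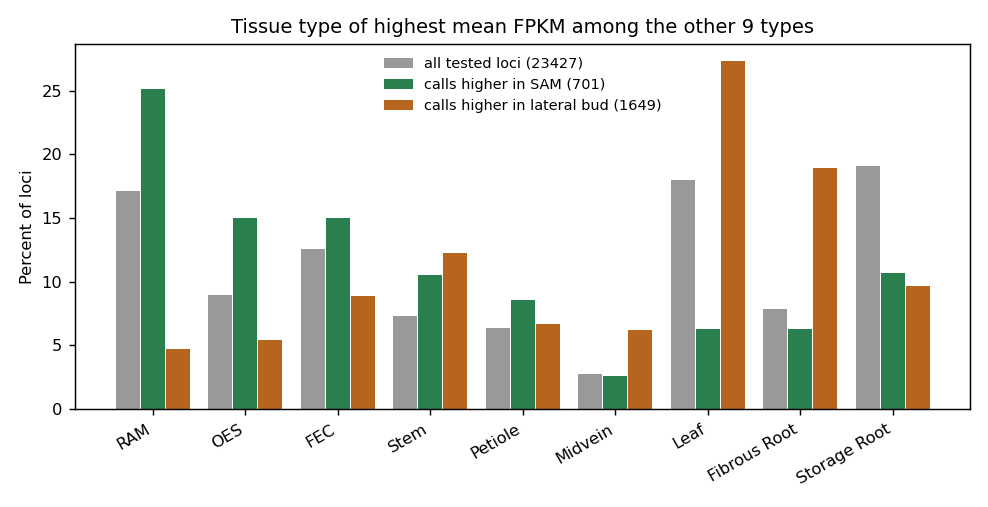
Percent of loci (y axis) for which each of the other 9 tissue/organ types (x axis) had the highest mean FPKM among the 9, for all 23427 tested loci (grey), the 701 loci called higher in the SAM (green) and the 1649 called higher in the lateral bud (brown). The green bar is tallest at the RAM (25.1%) and the brown bar at the leaf (27.3%).

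The RAM was the other meristem of the atlas and was prepared like the SAM, and its comparison with the fibrous root shares no library with that of SAM and bud. By the same rule 5419 of 24053 loci (22.5%) were called there, 2476 higher in the RAM (10.3%) and 2943 higher in the fibrous root (12.2%). Of the 701 loci called higher in the SAM, 222 were also called higher in the RAM, which is 31.7% of the SAM calls and 8.97% of the RAM calls, and 65 were called higher in the fibrous root. Of the 1649 loci called higher in the bud, 616 were also called higher in the fibrous root, which is 37.4% of the bud calls and 20.9% of the fibrous root calls, and 59 were called higher in the RAM. Only 500 of the 701 SAM calls and 1304 of the 1649 bud calls were tested in both comparisons, and the rest could not be shared. Both comparisons set a dissected meristem against a larger organ, and both also set the PicoPure kit against the Spectrum kit, so the shared loci cannot be told apart by tissue and preparation. CLAVATA3, at 0 in all RAM and fibrous root libraries, was not among the shared loci, whereas BEL1-like homeodomain 1 had means of 2.12 FPKM in the RAM and 56.4 FPKM in the fibrous root.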

How the data were processed

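Each library's table lists loci from Cuffdiff. The authors deposited, per locus, FPKM on Cuffdiff's scaled library sizes and an estimated count of fragments, which were rounded here. Reads had been trimmed with Trimmomatic 0.32, mapped with TopHat2 to the AM560-2 assembly and merged with Cuffmerge, and the submitters' processing notes name Cufflinks 2.2.1. Of 38593 loci, 32732 carry gene names, and counting is not stated to use strand. Loci without a gene name, with 2.40 to 3.61% of the fragments in the 6 libraries, stayed out of the tests. The gene lists and members were chosen with earlier results of these data known. Loci were tested with edgeR 4.0.16 (R 4.3.3, glmQLFit, TMM factors 0.720 to 1.15, biological coefficient of variation 0.264) over all 32 libraries with 11 group means, and adjusted by the Benjamini-Hochberg method. A standard error is the log2 fold change over the square root of F. P-values rest on the spread between biological replicates, estimated over all 11 tissue/organ types together. The median squared coefficient of variation of FPKM was 0.049 in the bud and 0.020 in the SAM. Alternatives used limma 3.58.1 on log2(FPKM + pseudocount) and DESeq2 1.42.0. The fits were tested on simulated data.

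Named genes follow a rule: per direction, the 10 annotated single-gene calls of largest ratio (at least 10 FPKM in the higher tissue, above 3 fragments in a library of the lower one, libraries not overlapping) and the 5 of highest level, the 3 most abundant calls of each list (or the most abundant tested locus where none was called), and any tested locus of the KNOX and BELL, WOX and CLAVATA, organ boundary and dormancy lists. Others are marked. Of 31 lists, matched on words of the annotation, 28 had at least 3 tested loci. The lists of organ polarity, latex and cyanogenic glucosides had fewer and are not described. No annotation of the build paired with these gene IDs was used for sequences or coordinates.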

Additional observations from a re-analysis of the deposited data

How the results depend on the processing

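The counts of calls kept within 1.5 times of 2350 (701 higher in the SAM, 1649 higher in the bud) under RLE normalization, both rescalings of FPKM, DESeq2, limma with either pseudocount, a fit of the 6 libraries alone, no filter on low values, a fold limit on the fitted fold change and single-gene loci only. A minimum of 10 FPKM left 983 (340 and 643), and a ratio above 2 gave 5477 (2280 and 3197), with 58.4% of the calls higher in the bud in place of 70.2%. Leaving out each library in turn gave 1870 to 2621 calls in all, 519 to 826 higher in the SAM and 1351 to 1795 higher in the bud, the lowest of each without lateral bud 2. On the log scale, deviations of same-numbered libraries from their tissue means correlated at -0.11, -0.04 and 0.05. These values gave no sign of pairing by replicate number. With the replicate number as a block the calls were 1736 (473 and 1263) over 6 libraries and 2344 (690 and 1654) over all 32. Of the 108 named loci past the adjusted p, none changed direction under any of these alternatives, 21 lost the threshold under the block over 6 libraries, 9 without SAM 2 and 8 of 105 without lateral bud 2. The share of SAM calls also called in the RAM was 29.4% to 48.6% and that of bud calls also called in the fibrous root 29.4% to 44.8% under the other filter, fold limit and locus set. JS distances between bud and SAM averaged 0.219, and 0.193 over named loci. Without the logarithm their mean was 0.538 and did not exceed the mean within a tissue (0.563 in each). There SAM 1 was at 0.336 from lateral bud 1, but at 0.705 and 0.700 from SAM 2 and SAM 3. Fewer loci could pass the stricter minimum and more the lower ratio, by construction, and the cause of the other shifts was not tested. SAM depth limits low genes most.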

Other observations

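A family outside the lists stood out after the values had been seen. Of 21 tested loci annotated as hydroxyproline-rich glycoprotein family protein, 14 were called higher in the lateral bud and 0 higher in the SAM, beside 15.4% and 4.93% of all annotated loci. These proteins belong to the cell wall and its surface. The IDs of 13 of the 14 lie close together in 2 series, 9 tested loci (8 genes) from Manes.07G036100 to Manes.07G040400 and 5 from Manes.10G099800 to Manes.10G101200. No SAM library held more than 3 fragments on any of the 14 loci of both series, of which 8 and 5 were called. The series on Manes.07G summed to 41.5, 182 and 50.0 FPKM in lateral buds 1, 2 and 3, with 290, 1088 and 359 fragments, and to 0.630, 0.945 and 1.25 FPKM in the SAM. The highest sums were those of the fibrous root, at 598, 1006 and 973 FPKM, while no leaf, midvein, petiole or stem library exceeded 1.98 FPKM. The series on Manes.10G summed to 10.1, 47.7 and 16.3 FPKM in the buds, 0 in every SAM library and 102, 217 and 207 FPKM in the fibrous root. Neighbouring copies can share reads, so the values of single members are uncertain.

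Lateral bud 2 also had few transcripts of 2 of the 4 genes annotated as chalcone-flavanone isomerase family, an enzyme family of flavonoid synthesis. Manes.01G145700 was at 66.9, 0.572 and 38.8 FPKM in lateral buds 1, 2 and 3 and at 69.3 to 85.5 FPKM in the SAM, and Manes.02G104500 at 48.1, 0.542 and 29.8 FPKM against 48.6 to 57.4 FPKM. The histone H1-3 gene (Manes.01G144600) was highest in lateral bud 2, at 483, 2191 and 1232 FPKM in the 3 buds and 467 to 716 FPKM in the SAM (edgeR adjusted p = 0.064).

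A single-gene locus without an annotation, Manes.12G129100, was likewise lowest in lateral bud 2, with 398 FPKM in lateral bud 1, 6.17 in lateral bud 2, 332 in lateral bud 3 and 945 to 1790 in the SAM. At some short loci a few fragments gave a large FPKM. Manes.05G131800 had 849 FPKM from 4 fragments in lateral bud 1 and 5098 FPKM from 5 fragments in SAM 3, and the ratio of its means says little.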
